A study of Mus musculus with 6 samples.

Results

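The BCL2 family genes described here were 10 members fixed by gene symbol: Bcl2a1a, Bcl2a1b, Bcl2a1c, Bcl2a1d, Bcl2, Bcl2l1, Bcl2l11, Mcl1, Bbc3 and Bid. They were found through every probe whose single annotated symbol was one of these names, which gave 18 probes of 13738 with a single symbol. All 10 had at least 1 probe with a value on all 6 arrays, among 9472 named genes measured that way. Total RNA came from RAW 264.7 cells, a mouse macrophage line, and the labels also write RAW 264.4 in places. The treated cells were cultured for 2 h with lipopolysaccharide (LPS, 100 ng/ml), the endotoxin of Gram-negative bacteria, and LPS-binding protein (LBP, 100 pM), the serum protein that hands LPS to its receptor. The untreated cells were cultured for 2 h without them. Each of the 6 two-colour arrays held 1 treated and 1 untreated RNA. The labels number them as sets 1 to 3, each of a forward array (treated RNA in Cy5, the red dye) and a swapped array (treated RNA in Cy3, the green dye). Nothing in the labels makes the sets separate cultures, so p-values measure only the spread between sets, which may be technical. The deposited ratios were read as red over green, which is likely but which no source states. Read the other way, every sign, direction and rank given here would reverse. The cells are a single line, and LPS alone and LBP alone were not analysed here.

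Proteins of this family decide at the mitochondrial outer membrane whether a cell enters apoptosis. The survival members (BCL2, BCL-XL from Bcl2l1, MCL1 and A1 from the Bcl2a1 genes) hold the pore-forming effectors BAX and BAK in check. The BH3-only members (BIM from Bcl2l11, PUMA from Bbc3 and BID) bind the survival proteins or activate the effectors. Macrophages are known to raise A1 when they meet bacterial products, and the mouse carries A1 as several near-identical gene copies.

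The sequences upstream of the 4 Bcl2a1 copies are shown because they make clear how alike the copies are before their starts. Each line below gives the stretch that all 4 copies share within the 250 bases before the RefSeq start of the gene (GRCm38.p6), read 5′ to 3′ along the gene. Capitals mark TGANTCA, a loose form of the AP-1 site with any base at N, and GAGGAA, the core of Ets factors such as PU.1. Both were marked on either strand (TTCCTC is GAGGAA read on the other strand). Each marked match to TGANTCA reads TGAATCA, and whether AP-1 binds those letters was not tested.
Bcl2a1a, chr9:88956780-88956919, plus strand: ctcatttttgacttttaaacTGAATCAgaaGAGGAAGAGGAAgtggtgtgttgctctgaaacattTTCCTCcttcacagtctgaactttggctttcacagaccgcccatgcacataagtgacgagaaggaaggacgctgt
Bcl2a1b, chr9:89199089-89199228, plus strand: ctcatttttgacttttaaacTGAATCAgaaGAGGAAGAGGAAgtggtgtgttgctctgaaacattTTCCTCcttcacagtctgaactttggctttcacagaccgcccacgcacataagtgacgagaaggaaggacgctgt
Bcl2a1c, chr9:114329885-114330024, plus strand: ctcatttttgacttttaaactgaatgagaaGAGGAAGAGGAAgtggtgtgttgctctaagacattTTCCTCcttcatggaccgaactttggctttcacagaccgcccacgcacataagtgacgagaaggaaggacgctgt
Bcl2a1d, chr9:88731851-88731984, minus strand: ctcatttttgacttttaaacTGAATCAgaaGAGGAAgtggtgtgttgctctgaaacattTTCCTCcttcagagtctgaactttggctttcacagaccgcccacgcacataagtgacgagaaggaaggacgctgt

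The copies were between 90.7% (Bcl2a1c and Bcl2a1d) and 99.3% (Bcl2a1a and Bcl2a1b) identical over this stretch of 140 aligned columns. Bcl2a1d was shorter by 6 bases, with 1 GAGGAA fewer than the others in this stretch. The stretch ended 1 base before the RefSeq start in Bcl2a1a and Bcl2a1d, 45 bases before it in Bcl2a1b and 111 bases before it in Bcl2a1c. TGANTCA stood in the 250 upstream bases of Bcl2a1a, Bcl2a1b and Bcl2a1d, and in 6.75% of 32851 upstream sequences of that length. Bcl2a1c had no match to it. GAGGAA stood in all 4 copies, in Bcl2 and in Bid, and in 23.3% of all upstream sequences. A general NF-κB form, GGG and CC with any 5 bases between them, matched Bcl2a1c but not the other copies. It matched 10 of the 15 upstream sequences of the members, also in Bcl2, Bcl2l1, Bcl2l11, Mcl1, Bid and Bbc3. Of all upstream sequences, 45.8% hold it. A probe could bind RNA of several of these near-identical copies. This stretch lies before the RefSeq starts, so it does not show how alike their RNAs are. The probe sequences were not used here, so how far the probes tell the copies apart was not tested.

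After 2 h with LPS and LBP, transcripts of the A1 copies, of MCL1 and of the death gene BIM were higher, and those of Bcl2 were lower. Values are log2 ratios of treated over untreated RNA, so 1 is a doubling. Complete probes of a gene were averaged, then the 2 arrays of a set, and the mean ± SD of 3 sets was tested against 0 with limma over 11231 features (genes, and probes without a single symbol). Adjustment followed Benjamini and Hochberg over all features, and a gene is called higher or lower at an adjusted p under 0.05. Of the 10 members, 7 were higher, 2 lower and 1 did not pass. Over all features, 14.8% were called, 7.35% higher and 7.45% lower. Of the 7 survival members 6 were higher and 1 lower, and of the 3 BH3-only members 1 was higher, 1 lower and 1 did not pass. The A1 copies count as separate members, although a probe could bind RNA of several. Members were named with earlier results of these data known, so these counts are a description. Without the forward array of set 2, 5 members passed, all higher (Bcl2a1a, Bcl2a1c, Bcl2a1d, Mcl1 and Bcl2l11), and 4.75% of all features. Array ratios cannot tell more RNA per cell from more cells that hold it.

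**Figure D1:**
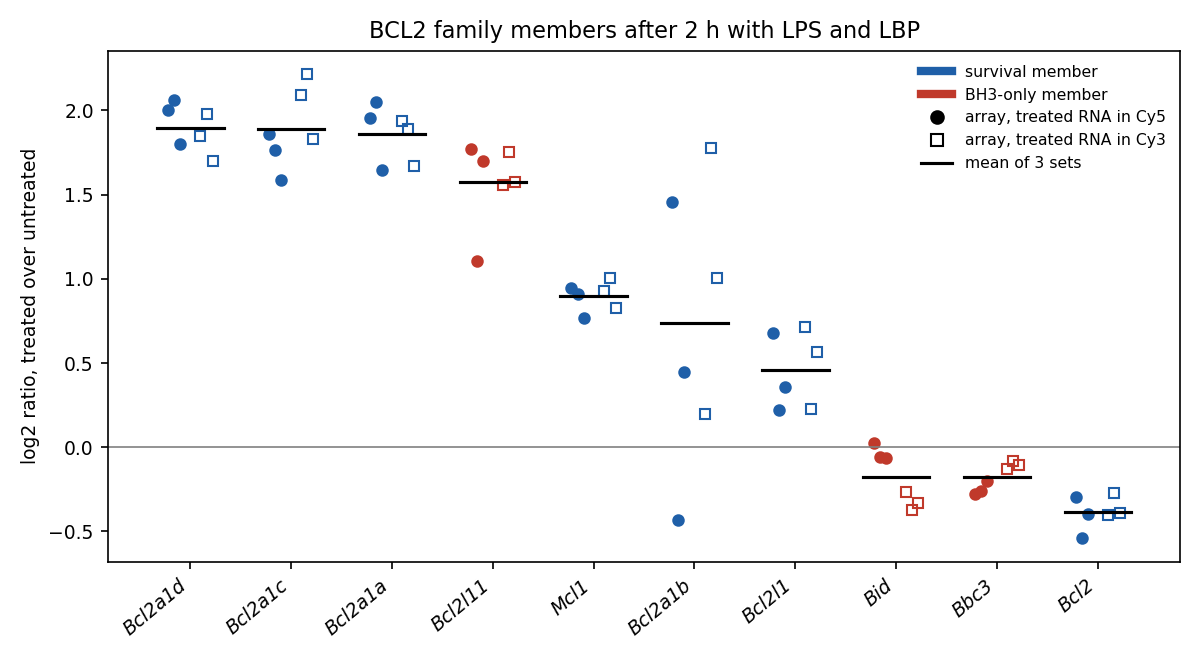
Log2 ratio of treated over untreated RNA (vertical axis) for each of the 10 members (horizontal axis), with 1 point per array, filled circles for forward arrays, open squares for swapped arrays and a line at the mean of 3 sets. Bcl2a1d, Bcl2a1c and Bcl2a1a lie highest, near 1.9, the BH3-only gene Bcl2l11 follows at 1.58, and Bcl2 lies lowest at -0.38, while the points of Bcl2a1b spread from -0.43 to 1.77.

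Among the survival genes, 3 of the 4 A1 copies had the highest ratios. In sets 1 to 3, the single Bcl2a1d probe gave 2.00, 2.06 and 1.80 on the forward arrays and 1.85, 1.98 and 1.70 on the swapped arrays. All 6 values lay within a narrow band, and both dye orientations overlapped. Bcl2a1d rose 3.73-fold (1.90 ± 0.14, n = 3 sets, limma adjusted p = 2.23e-05) and stood at rank 43 of 11231 features from the highest. The single Bcl2a1a probe gave 1.95, 2.05 and 1.64 on the forward arrays and 1.93, 1.89 and 1.67 on the swapped arrays. It rose 3.62-fold (1.86 ± 0.17, adjusted p = 3.14e-05). Set 3 was the lowest of the sets for both copies. The difference between them was 0.04 ± 0.06 over the sets (exact two-sided sign-flip test, p = 0.5). With 3 sets this test cannot reach a small p, so it cannot show whether the 2 copies differ.

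Bcl2a1c had 2 probes that did not give the same picture. Probe 17666 gave 1.86, 1.76 and 1.59 on the forward arrays and 2.09, 2.22 and 1.83 on the swapped arrays. By this complete probe Bcl2a1c rose 3.71-fold (1.89 ± 0.16, adjusted p = 2.48e-05), 0.01 ± 0.05 below Bcl2a1d. Probe 5978 had a value on 4 arrays only: -0.98 on the forward array of set 1, and 1.45, 0.95 and 0.80 on the swapped arrays. Before the signs were turned, all 4 of these leaned to Cy3, whichever RNA it carried. With missing values allowed, the gene mean was 1.41 and still past the threshold (adjusted p = 0.00168).

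Bcl2a1b differed from the other copies by its low agreement between arrays. Its single probe gave 1.45, -0.43 and 0.45 on the forward arrays and 0.20, 1.77 and 1.00 on the swapped arrays. Within each set a high array met a low one, so the set means were close together at 0.82, 0.67 and 0.72. Taken by sets, Bcl2a1b rose 1.67-fold (0.74 ± 0.08, adjusted p = 0.000335). Taken as 6 single arrays with no replicate block the same mean had an adjusted p of 0.150, and with a dye term 0.155, so this call rests on the pairing of the arrays. It was also lost without the forward array of set 2 (1.11, adjusted p = 0.0592). Its ratio was 1.16 ± 0.17 below that of Bcl2a1d, and lower on 6 of 6 arrays.

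Mcl1, which encodes a short-lived survival protein, had 2 probes that gave nearly the same ratio. Probe 2858 gave 0.94, 0.91 and 0.77 on the forward arrays and 0.93, 1.01 and 0.82 on the swapped arrays. Mcl1 rose 1.86-fold by this probe (0.90 ± 0.09, adjusted p = 0.000177). Probe 3136 lacked both arrays of set 1 and gave 1.14, 0.78, 1.00 and 0.89 on the rest. Bcl2a1d was 1.00 ± 0.06 above Mcl1, and higher on 6 of 6 arrays.

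Bcl2l1 is the gene of BCL-XL, and alternative splicing is known to make a shorter form from it that favours death. Its 4 complete probes spread widely. Probe 15184 gave 1.96, 1.03 and 1.51 on the forward arrays and 1.79, 1.35 and 1.45 on the swapped arrays, a mean of 1.52 ± 0.34 (adjusted p = 0.000376 in the fit to single probes). Probe 6297 (0.31 ± 0.34, adjusted p = 0.138), probe 18458 (0.12 ± 0.10, adjusted p = 0.235) and probe 12034 (-0.10 ± 0.17, adjusted p = 0.416) did not pass. Probe 15184 exceeded each of them on 6 of 6 arrays, by 1.2 ± 0.06, 1.40 ± 0.25 and 1.62 ± 0.18. Which transcripts each probe reads was not tested.

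Averaged over these probes, Bcl2l1 was higher by 1.38-fold (0.46 ± 0.24, adjusted p = 0.0191), positive on 6 of 6 arrays from 0.22 to 0.71. That call rests on probe 15184: with the median of the probes in place of their mean, Bcl2l1 stood at 0.24 (adjusted p = 0.129). It was also lost without set 1 (0.34, adjusted p = 0.0633), without set 3 (0.46, adjusted p = 0.147) and without the forward array of set 2 (adjusted p = 0.0913).

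Bcl2, the founding survival gene of the family, was the lower one. Averaged over its 2 probes it gave -0.30, -0.54 and -0.39 on the forward arrays and -0.40, -0.27 and -0.39 on the swapped arrays. All 6 values were negative, and the orientations overlapped. Bcl2 fell 1.30-fold (-0.38 ± 0.03, adjusted p = 0.00286). Probe 7997 (-0.47 ± 0.04, adjusted p = 0.00128) and probe 15338 (-0.30 ± 0.03, adjusted p = 0.00794) each passed in the fit to single probes. The adjusted p of Bcl2 was 0.0541 without set 3 and 0.0667 without the forward array of set 2.

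**Figure D2:**
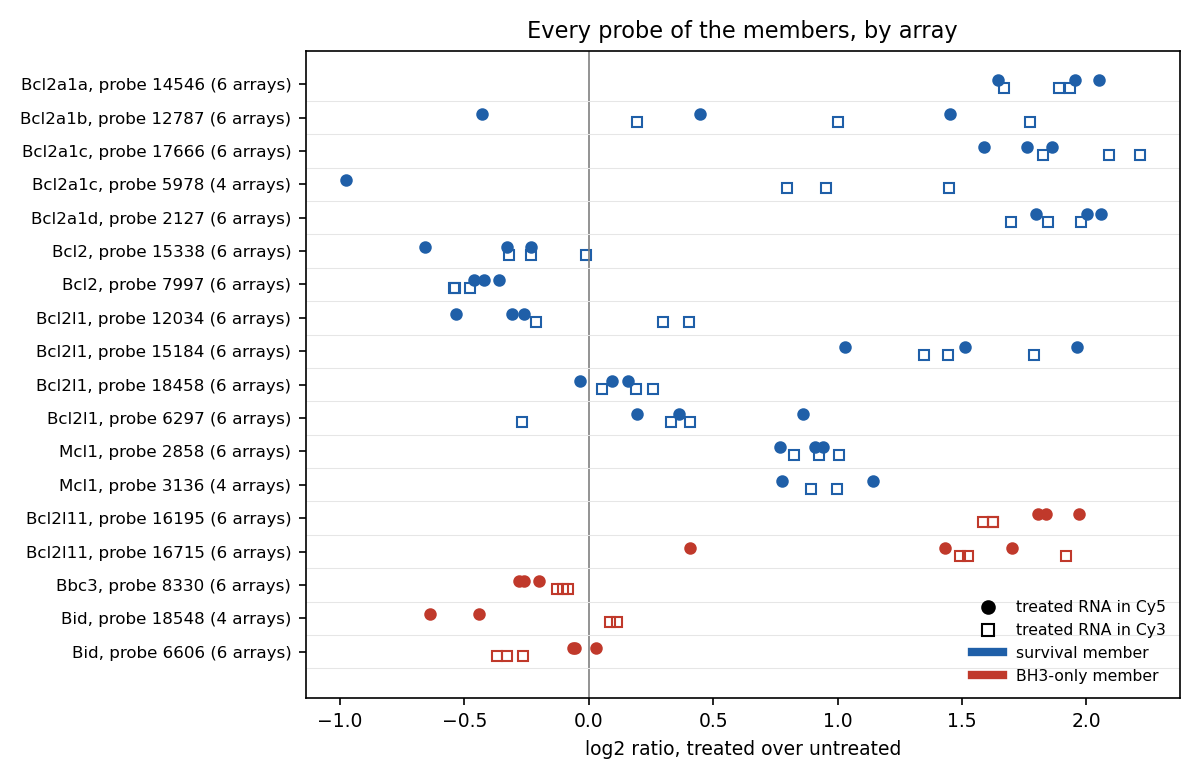
Log2 ratio of treated over untreated RNA (horizontal axis) on each array for each of the 18 member probes (vertical axis), filled circles for forward arrays and open squares for swapped arrays. Probe 15184 of Bcl2l1 lies above 1 on every array, the other 3 Bcl2l1 probes lie between -0.53 and 0.86, and the orientations have opposite signs for probe 5978 of Bcl2a1c and probe 18548 of Bid.

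Of the BH3-only genes, Bcl2l11 had the one large ratio. Bcl2l11 encodes BIM, which can bind all the survival proteins and set off the effectors. Averaged over 2 probes it gave 1.77, 1.11 and 1.70 on the forward arrays and 1.56, 1.75 and 1.58 on the swapped arrays. The low value of set 2 came from probe 16715, at 0.41 on that array and between 1.43 and 1.92 on the rest. Probe 16195 lay between 1.58 and 1.97 on all 6, with each forward array above every swapped array. Bcl2l11 rose 2.98-fold (1.58 ± 0.13, adjusted p = 3.10e-05, 6 of 6 arrays) and stood at rank 64 of 11231. Without that array it stood at 1.68 (adjusted p = 0.000451). By single probes, 16195 gave 1.74 ± 0.05 and 16715 gave 1.41 ± 0.22, and both passed.

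Bbc3 and Bid showed far smaller ratios. Bbc3 encodes PUMA, a target of p53, and its single probe gave -0.28, -0.26 and -0.20 on the forward arrays and -0.13, -0.08 and -0.11 on the swapped arrays. The orientations did not overlap, though all 6 values were negative. Bbc3 was lower by 1.13-fold (-0.18 ± 0.03, adjusted p = 0.0478). The call is at the edge: its adjusted p was 0.127, 0.0936 and 0.245 without sets 1, 2 and 3, 0.0508 with no replicate block, and 0.366 without the forward array of set 2. In the limma fit to single probes the probe did not pass (adjusted p = 0.0541).

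Bid encodes a protein that caspase-8 cuts, which links death receptors to mitochondria. Its complete probe, 6606, gave 0.03, -0.06 and -0.06 on the forward arrays and -0.26, -0.37 and -0.33 on the swapped arrays. Bid did not pass (-0.18 ± 0.05, adjusted p = 0.0562), although it did with a dye term in the fit (adjusted p = 0.0186) and with the set as a random replicate block (adjusted p = 0.0303). Without the forward array of set 2 it stood at -0.23 (adjusted p = 0.240). Probe 18548, with values on 4 arrays, split the other way, at -0.44 and -0.64 on the forward arrays and 0.08 and 0.11 on the swapped arrays. The orientations did not overlap for either probe, and the dye term of Bid had an adjusted p of 0.0821.

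The survival and BH3-only genes did not form separate groups. The median of the survival members was 0.90 and that of the BH3-only members -0.18, against -0.00 over all features. Most of the survival members are A1 copies, and a probe could bind RNA of several of them, so their ratios may not be separate. Taken within each set, the difference of the class medians was 1.05, 1.13 and 0.95. On the swapped arrays alone it was 1.34, above the 1.04 ± 0.09 over the sets. Bcl2l11 stood apart from the other BH3-only genes. Its ratio was 0.68 ± 0.19 above that of Mcl1, 1.12 ± 0.13 above that of Bcl2l1 and 1.96 ± 0.11 above that of Bcl2, in each case on 6 of 6 arrays. Bcl2a1d exceeded it by 0.32 ± 0.25, on 6 of 6 arrays, and Bcl2a1a by 0.28 ± 0.26, on 5 of 6. Against Bbc3 and Bid it was higher by 1.75 ± 0.14 and 1.75 ± 0.10. These differences of ratios are described and were not tested.

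In the order of the ratios, Bcl2a1d, Bcl2a1c and Bcl2a1a came first, with differences from Bcl2a1d no larger than their SD. Bcl2l11 was next, then Mcl1 and Bcl2a1b, whose difference (0.16 ± 0.11 in favour of Mcl1) had Mcl1 higher on 3 of 6 arrays. Bcl2a1b and Bcl2l1 differed by 0.28 ± 0.16, with Bcl2a1b higher on 4 of 6 arrays. Bid and Bbc3 differed by 0.00 ± 0.07. Bcl2 came last, 0.21 ± 0.05 below Bbc3 and lower on 6 of 6 arrays.

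Of the members, 8 of 10 had the same sign on all 6 arrays, against 19.1% of all features, and 4 were called over 2-fold higher, against 1.1% of all features. By single probes, 8 of 15 complete member probes were higher, 2 lower and 5 did not pass, where 15.0% of all complete probes passed, 7.5% higher and 7.45% lower.

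**Figure D3:**
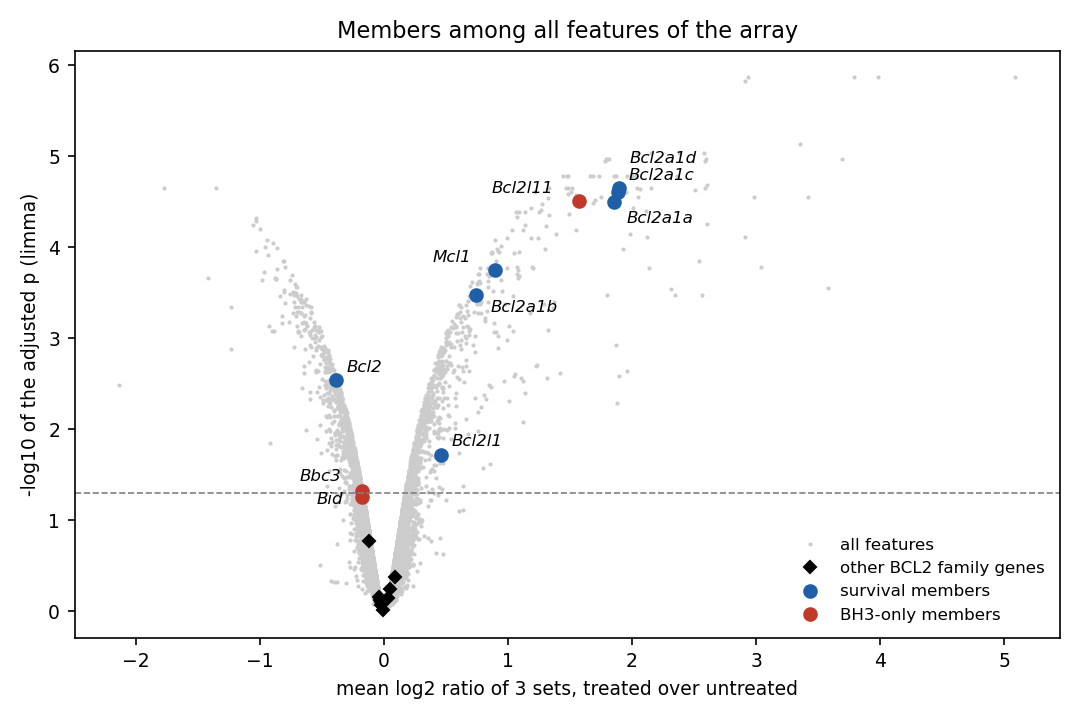
Mean log2 ratio of 3 sets (horizontal axis) against -log10 of the limma adjusted p (vertical axis) for 11231 features in grey, with survival members in blue, BH3-only members in red and 9 other BCL2 family genes as black diamonds. The dashed line marks the threshold of 0.05. Bcl2a1d, Bcl2a1c, Bcl2a1a and Bcl2l11 lie far to the right, and all 9 other family genes lie below the threshold, between -0.12 and 0.09.

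Of 16 further BCL2 family genes listed, 9 had a complete probe and 0 of these passed by limma (14.8% of all features did), 1 of them with an unadjusted p under 0.05 (Bnip3l, which encodes a protein of mitochondrial clearance). Their median was -0.02. The effector gene Bak1 stood at -0.01 ± 0.21 and Bok, a relative of it, at -0.02 ± 0.08. The survival genes Bcl2l2 and Bcl2l10 stood at -0.02 ± 0.01 and 0.09 ± 0.13. Among further BH3-only genes, Bad stood at -0.04 ± 0.06, Hrk at 0.03 ± 0.03 and Pmaip1, the gene of NOXA, at 0.05 ± 0.07. Bnip3 (-0.03 ± 0.05) and Bnip3l (-0.12 ± 0.05, adjusted p = 0.168) complete the list. The Bad values split by dye, from -0.27 to -0.12 on the forward arrays and from 0.07 to 0.27 on the swapped arrays, with a dye term at an adjusted p of 0.0882. Those of Bnip3l did too, from -0.37 to -0.17 and from 0.00 to 0.19 (dye term at an adjusted p of 0.0890), and the orientations of Bok and Bnip3 did not overlap. Bik had a value on 4 arrays, with a mean of -0.10. Bax, Bmf, Bcl2l12, Bcl2l13, Bcl2l14 and Bcl2l15 were not analysed here.

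Downstream of the mitochondria, 15 of 17 listed genes of the apoptosome, caspases and nuclease were tested, with 0 higher and 2 lower (median -0.04). Apaf1, which builds the platform for caspase-9, fell 1.26-fold (-0.34 ± 0.06, adjusted p = 0.00615), negative on 6 of 6 arrays. Its values did not overlap between orientations, with means of -0.15 on the forward and -0.52 on the swapped arrays (dye term at an adjusted p of 0.0781). Dffb, the nuclease that cuts DNA in apoptosis, fell 1.22-fold (-0.29 ± 0.10, adjusted p = 0.0174, 6 of 6 arrays). Of 9 inhibitor of apoptosis genes, 5 were tested and 2 were higher (median 0.13). As a share of all features, 7.35% were called higher and 7.45% lower. Birc3 (cIAP2) gave 1.45, 1.44 and 1.22 on the forward arrays and 1.66, 1.62 and 1.53 on the swapped arrays. It rose 2.80-fold (1.49 ± 0.10, adjusted p = 2.56e-05), close to the ratio of Bcl2l11. The orientations of Birc3 did not overlap (dye term at an adjusted p of 0.181). Birc2 (cIAP1), its close relative, rose 1.18-fold (0.24 ± 0.06, adjusted p = 0.0209, 6 of 6 arrays).

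Of 20 listed regulators of the family, 16 were tested, with 2 higher and 1 lower (median 0.02). Mdm2, which encodes the ubiquitin ligase of p53, rose 1.51-fold (0.60 ± 0.09, adjusted p = 0.000876), from 0.53 to 0.70 on 6 arrays. Ddit3, the gene of the stress factor CHOP, rose 1.40-fold (0.48 ± 0.09, adjusted p = 0.00216), from 0.24 to 0.60. Bag4, which encodes a chaperone partner, fell 1.19-fold (-0.25 ± 0.07, adjusted p = 0.0225, 6 of 6 arrays). Foxo3 (-0.03) and E2f1 (-0.19, adjusted p = 0.0782) did not pass. Whether any listed regulator acts on Bcl2l11 in these cells was not tested. Over these 4 lists 7 of 45 genes tested passed (15.6%), a share near the 14.8% of all features, so the count is no result about these lists. Without set 1, 4 passed, and without set 3 or without the forward array of set 2, 3 passed, Birc3, Mdm2 and Ddit3 each time.

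Bcl2l11 and Bbc3 share letters that FOXO factors can bind. Bcl2l11 rose (1.58), while Bbc3 was only slightly lower (-0.18), a call at the edge of the threshold. GTAAACA stood upstream of 1 of 2 RefSeq starts of Bcl2l11 and 1 of 3 starts of Bbc3, in no other member, and in 3.17% of all upstream sequences. Both stretches are given along the gene, on GRCm38.p6, with the match in capitals (in Bbc3 it reads on the other strand).
Bcl2l11, chr2:128125788-128125847, plus strand: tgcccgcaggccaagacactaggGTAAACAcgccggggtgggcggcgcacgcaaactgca
Bbc3, chr7:16310064-16310130, plus strand: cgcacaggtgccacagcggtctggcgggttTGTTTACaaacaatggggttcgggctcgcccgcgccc
The match began 227 bases before the start in Bcl2l11 and 167 bases before it in Bbc3. TGACGTCA, the CRE sequence, matched none of the 15 upstream sequences of the members, and 1.55% of all hold it. These matches describe letters only, and binding was not measured. Which starts these cells use, and any link between the letters and the ratios, was not tested.

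Among the 5 genes with the ratios most like those of Bcl2a1d, by the root mean square difference over 6 arrays among 9462 named genes outside the members, were Ehd1 (0.13), Lilrb4a (0.13), Dusp2 (0.15) and Pdgfb (0.15). Dusp2, a phosphatase gene of MAP kinases, stood at 1.87 ± 0.15. For Bcl2 the nearest were Zfp346, Etv5, Wee1, Ptpre and Ifi47, with differences from 0.06 to 0.07 and means from -0.38 to -0.36.

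**Figure D4:**
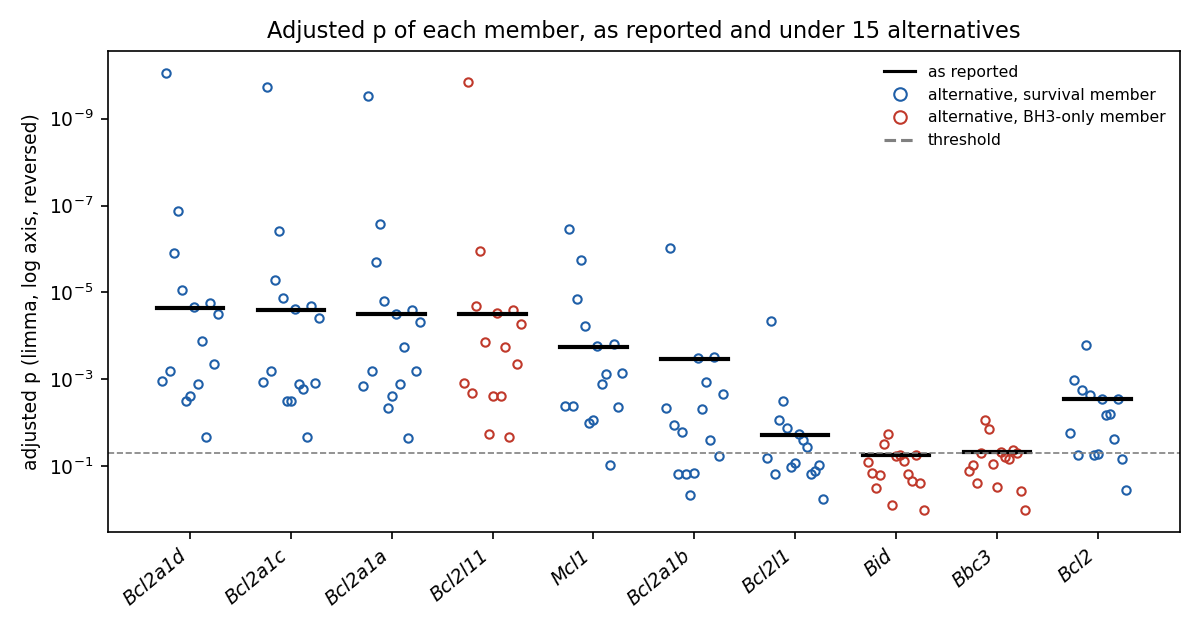
Limma adjusted p (vertical log axis, reversed) of each member as reported (black line) and under 15 alternative settings (circles, blue for survival and red for BH3-only members), with the threshold of 0.05 dashed. Bcl2a1d, Bcl2a1c, Bcl2a1a and Bcl2l11 stay above the line in all 15, Mcl1 in 14, Bcl2a1b and Bcl2 in 10, Bcl2l1 in 7, Bbc3 in 5 and Bid in 2.

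As facts of the whole table, array medians of the ratio lay between -0.02 and 0.01, and exact zeros, taken as missing, filled 10.8% of the values. The ratios hold no level, so the labelled cell type could not be checked by marker level. Of 10 macrophage markers 9 had a complete probe. Of these, Adgre1 (0.83) and Spi1 (0.47) were higher, Csf1r (-0.21) and Fcgr3 (-0.28) were lower, and 5 did not pass. Of 8 lymphocyte and 6 fibroblast markers 6 and 4 had a complete probe, with 0 called by limma in either list. At an unadjusted limma p under 0.05, 2 and 1 of them passed. Over all features 14.8% were called.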

How the data were processed

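The deposited table of 16281 probes on 6 arrays holds log2 values, read from the values as ratios of the red to the green channel. The sources used here give no background correction, dye normalization or log base, and no spot intensities were used, so precision is limited by how many arrays there are. Values of exactly 0 were set to missing (13224 complete probes remained), swapped arrays had their signs turned, and probes were named by the platform annotation (52 with several symbols and 2491 with none were not named). Set means (n = 3) were tested with limma 3.58.1 in R 4.3.3 (lmFit, eBayes, two-sided, prior degrees of freedom 4.16), after a test on simulated data. A second fit took each complete probe alone. Arrays were paired by the set number of the labels. Before the turn, the 2 arrays of a set deviated together from their orientation means (r across features 0.40, 0.43 and 0.14). After the turn, the consensus correlation within sets was -0.44, so a high ratio tended to meet a low one in the same set. The members and lists were chosen with earlier results of these data known. Named were all members, all listed genes past the threshold, all listed BCL2 family genes, and the 5 genes nearest to Bcl2a1d and to Bcl2, of which 1 is not reported here. Foxo3 and E2f1 were named after their values were seen. Alternatives left out a set or a dye orientation and changed the block, the dye term, centring, scaling, missing values, probe averaging and the null. Upstream sequences come from RefSeq (GRCm38.p6), where all 10 members matched, with 15 starts.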

Additional observations from a re-analysis of the deposited data

Results flagged for a closer look

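The Bcl2l11 value of 1.11 on the forward array (treated RNA in Cy5) of set 2 stood far from its other 5 arrays, as did that of its probe 16715 on the same array (0.41). The gene value averages this probe, so they are 1 observation. Chance alone marks about 1 in 20 groups of this size, and 28 genes and probes were examined. Without this array Bcl2a1a stood at 1.83, Bcl2a1c at 1.97, Bcl2a1d at 1.88 and Mcl1 at 0.91, all past the threshold, and the values of the other members stand with them.

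For 2 probes with missing values the forward and the swapped arrays had opposite signs. Probe 5978 of Bcl2a1c stood at -0.98 (1 forward array) and at a mean of 1.07 (3 swapped arrays). Probe 18548 of Bid stood at a mean of -0.54 (2 forward arrays) and of 0.10 (2 swapped arrays). The difference between the orientations was not tested for these probes. Over the 15 complete member probes, a dye term passed the threshold for 0 in a limma fit to single arrays.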

How the results depend on the processing

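No member changed sign under 15 alternatives. Bcl2a1a, Bcl2a1c, Bcl2a1d and Bcl2l11 passed in all of them, and Bcl2a1c moved most, from 1.13 (exact zeros kept) to 2.04 (only swapped arrays). Of the 10 members, 5 passed with only the arrays of either dye orientation, and 6 to 8 without 1 set. Without the forward array of set 2, an alternative chosen after seeing the data, 5 passed. Paired by sets, 9 members passed, against 7 with no replicate block and 10 with the set as a random replicate block. The share of all features that passed moved the same way, at 14.8%, 12.3% and 20.3% in that order. Of the 45 other listed genes tested 7 passed, against 4 with only forward arrays, 3 with only swapped arrays, 4 with exact zeros kept, 2 in a test against a 1.2-fold change, 3 to 9 without 1 set and 3 without that array. The difference of class medians moved to 1.34 with only swapped arrays and lay between 1.00 and 1.09 without 1 set. Member probes past the threshold numbered 9 to 11 without 1 set and 8 with no replicate block. Over all features 1663 passed, against 1056 without set 1, 563 without set 3, 533 without the forward array of set 2, 639 and 655 with only forward or only swapped arrays, 962 with exact zeros kept and 394 in the test against a 1.2-fold change. Mcl1 lost its call only with exact zeros kept (adjusted p = 0.0924). Fewer arrays enter several of these fits, and the other causes were not tested.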
